A study of Rattus norvegicus with 5 samples.

Results

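The genes described here were the adenylyl cyclases that make cyclic AMP, the phosphodiesterases that break down cyclic nucleotides, and the subunits of cyclic AMP-dependent protein kinase (PKA). They were all genes whose name in the deposited gene list began with Adcy or Pde followed by a digit, or with Prkac or Prkar, with 1 phosphodiesterase gene not reported here. The rule read gene names only, but the family was picked with earlier results of these data known. This gave 42 of 32883 genes: 10 cyclases, 24 genes of phosphodiesterase subunits, 6 PKA subunits, and Pde4dip and Pde12, which carry the prefix but encode a scaffold protein and a mitochondrial RNA-degrading enzyme.

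The samples were 5 single-nucleus RNA sequencing (snRNA-seq) libraries of tissue punches of the rat ventral tegmental area (VTA), 1 library for each of 5 adult male rats. The labels give the treatment as saline and the study describes the rats as drug-naïve, so there was 1 condition and every comparison was between cell classes of the same rats. A class was a set of nuclei grouped by expressed genes without any of the 42 genes, then named by marker genes, so differences of these genes between classes were not built into the grouping. Nuclear RNA leaves out most cytoplasmic transcripts.

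Cyclic AMP is an intracellular messenger made from ATP by adenylyl cyclases, most of which are switched on or off by G proteins of receptors such as those for dopamine, opioids and peptide hormones. It activates PKA by releasing the catalytic subunits (Prkaca, Prkacb) from the regulatory ones (Prkar1a, Prkar1b, Prkar2a, Prkar2b), and phosphodiesterases end the signal by hydrolysing cyclic AMP, cyclic GMP or both. In the VTA this pathway is known for its part in the firing of dopamine neurons and in their adaptation to drugs of abuse.

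A known target of PKA is the transcription factor CREB, which binds the cyclic AMP response element. The stretch of 250 bases before the transcription start was therefore read for the members with a RefSeq start on the rat assembly GRCr8, which were 28 of 41 symbols with 42 starts in all. The full element TGACGTCA was found on neither strand before any of the 42 starts, against 1.59% of 33469 starts of all genes. The shorter letters TGACG, or CGTCA on the other strand, which the full element also contains, were found before 8 starts of 6 members. That was 19.0% of the starts of members and 18.2% of all starts. Sequences of Pde4d, Pde10a, Pde8a and Prkaca are shown as examples that hold the letters, which Adcy9 and Pde4a hold as well. Each is given in the direction of the gene and ends at the base before the start, and capitals mark TGACG or CGTCA. They lie at chr2:42592499-42592748 on the plus strand for Pde4d, at chr1:54765669-54765918 on the minus strand for Pde10a, at chr1:144575219-144575468 on the plus strand for Pde8a and at chr19:41083190-41083439 on the minus strand for Prkaca. A match of letters is a description and was not tested as a binding site.
Pde4d: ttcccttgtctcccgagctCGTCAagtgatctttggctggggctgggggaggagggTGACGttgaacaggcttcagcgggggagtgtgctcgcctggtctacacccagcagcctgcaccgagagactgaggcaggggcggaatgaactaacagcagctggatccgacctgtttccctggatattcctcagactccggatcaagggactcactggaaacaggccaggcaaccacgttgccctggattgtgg
Pde10a: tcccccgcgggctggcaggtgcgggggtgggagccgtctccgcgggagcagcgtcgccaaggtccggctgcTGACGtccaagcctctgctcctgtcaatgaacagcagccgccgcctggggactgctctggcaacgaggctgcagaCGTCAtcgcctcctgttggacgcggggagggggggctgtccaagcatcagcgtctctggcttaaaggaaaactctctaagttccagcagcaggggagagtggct
Pde8a: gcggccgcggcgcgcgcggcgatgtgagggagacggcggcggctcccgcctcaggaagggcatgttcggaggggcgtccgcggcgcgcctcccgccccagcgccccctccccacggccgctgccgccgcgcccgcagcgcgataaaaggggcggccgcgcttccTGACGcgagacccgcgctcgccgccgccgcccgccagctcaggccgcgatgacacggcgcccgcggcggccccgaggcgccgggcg
Prkaca: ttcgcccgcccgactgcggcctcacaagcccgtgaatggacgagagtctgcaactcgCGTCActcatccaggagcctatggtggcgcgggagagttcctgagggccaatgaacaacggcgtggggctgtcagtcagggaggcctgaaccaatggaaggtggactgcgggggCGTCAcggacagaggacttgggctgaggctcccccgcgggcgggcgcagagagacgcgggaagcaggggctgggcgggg

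The matches began 231 and 194 bases before the printed start of Pde4d and 179 and 104 bases before that of Pde10a. For both genes the start with the most matches was printed: of the 5 starts of Pde4d, 3 held no match and another held 1, at 19 bases, and the other start of Pde10a held none. They began 86 bases before that of Pde8a and 193 and 79 bases before that of Prkaca.

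The libraries held 10193355 (rat 3) to 88576210 (rat 2) unique molecular identifiers (UMIs), and 1813 to 9336 nuclei per rat passed the limits on UMIs, genes and mitochondrial share. Libraries shared at most 16 barcodes of nuclei. The classes were 1046 dopaminergic-like, 2958 GABAergic-like and 663 Slc17a6-high neurons. Glia gave 8644 oligodendrocytes, 716 of their precursor cells (OPCs), 1123 astrocytes and 612 microglia, and 388 nuclei were vascular. Levels below are UMIs of a gene per 10000 UMIs of all genes in the nuclei of a class in 1 rat, listed for rats 1 to 5 in that order, and a spread is the SD over 5 rats. Th, the rate-limiting enzyme of dopamine synthesis, was at 8.83 ± 5.98 in dopaminergic-like and at 0.556 ± 0.375 in GABAergic-like neurons. Mog of myelin was at 13.1 to 25.8 in oligodendrocytes and at 0.218 to 0.958 in dopaminergic-like neurons, and at 3.39 to 6.55 in microglia, and its part in the results was not tested.

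Rat 3, the shallowest library, stood apart. Its OPCs were 19 nuclei, and 190 of its 231 oligodendrocytes formed a cluster of their own, with no nuclei of other rats. Its 60 microglia went against their label: Cx3cr1 was at 0.304 there and at 4.32 to 6.07 in the other rats, and P2ry12 was at 0. Rat 1 also stood apart in part: 332 of its 413 oligodendrocytes lay in a cluster of 345 nuclei, 984 of its 1813 nuclei were left out, and its dopaminergic-like nuclei were only 15. Microglial calls were also fitted without the microglia of rat 3.

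**Figure D1:**
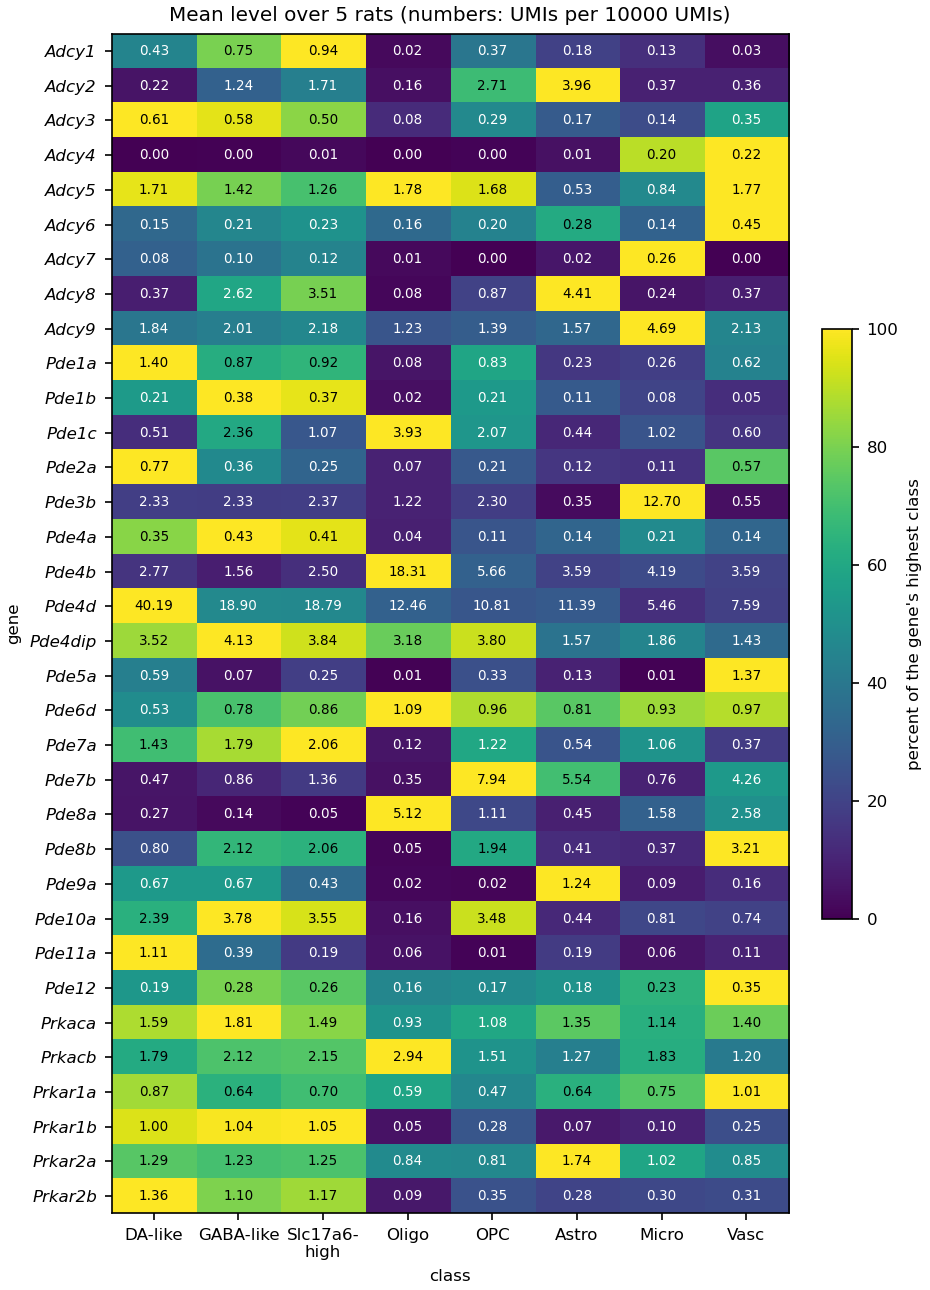
Mean level over 5 rats (UMIs per 10000 UMIs, printed in each cell) of the 34 members that passed the filter on low counts, in the 8 classes; shading is the percent of that gene's highest class. Pde4d reaches 40.2 in dopaminergic-like neurons, Pde4b 18.3 in oligodendrocytes and Pde3b 12.7 in microglia.

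Summed over the 10 cyclase genes, the level was 5.47 ± 0.669 in dopaminergic-like, 8.99 ± 1.79 in GABAergic-like and 10.5 ± 2.03 in Slc17a6-high neurons, and between 3.56 in oligodendrocytes and 11.2 in astrocytes among glia. Summed over the 24 phosphodiesterase genes it was 56.9 ± 8.94 in dopaminergic-like, 37.9 ± 6.82 in GABAergic-like and 37.5 ± 4.99 in Slc17a6-high neurons. The phosphodiesterase sum was higher in dopaminergic-like than in GABAergic-like neurons in each of the 5 rats and the cyclase sum was lower in each. The 6 PKA genes summed to 7.90 ± 1.87, 7.94 ± 2.33 and 7.81 ± 2.48 in those neuron classes. Pde4d made up 70.6% of the phosphodiesterase sum in dopaminergic-like and 49.9% in GABAergic-like neurons. Without Pde4d the order turned in each of the 5 rats, with 16.6, 16, 12.2, 20.1 and 18.4 in dopaminergic-like and 18.7, 20.1, 13.5, 22.9 and 19.5 in GABAergic-like neurons. These sums are descriptions without a test.

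Neurons were first compared with glia, as the mean of the 3 neuron classes against the mean of oligodendrocytes, OPCs, astrocytes and microglia. In edgeR's quasi-likelihood test with the rat as a block and Benjamini-Hochberg adjustment over 11135 genes, 34 of the 42 members were tested. Of these, 21 were higher in neurons, 4 were lower and 9 did not pass an adjusted p of 0.05. Among all genes tested, 31.9% were higher, 37.9% lower and 69.8% called in either direction, and the median log2 fold change was 0.90 for the members and -0.08 for all genes.

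Among the cyclases, Adcy1, which calcium and calmodulin stimulate, was at 0.905, 0.817, 0.361, 0.870 and 0.818 in GABAergic-like neurons and at 0.0147, 0.0122, 0.0618, 0.0158 and 0.00959 in oligodendrocytes. Every rat's neurons exceeded its oligodendrocytes, and the gene was higher in neurons than in glia (log2 fold change 2.74 ± 0.14 SE, edgeR adjusted p = 1.12e-20, higher in 5 of 5 rats). Adcy3 was higher by 1.84 ± 0.15 (SE, edgeR adjusted p = 7.65e-15), Adcy8, also calmodulin-stimulated, by 1.59 ± 0.15 (SE, edgeR adjusted p = 1.03e-12) and Adcy5, which inhibitory G proteins and calcium restrain, by 0.50 ± 0.12 (SE, edgeR adjusted p = 0.000361) on the log2 scale. These are differences of means over classes: Adcy8 was at 1.14 to 5.66 in astrocytes and at 0.264 to 0.512 in dopaminergic-like neurons. Adcy5 made up 49.9% of the cyclase sum of 3.56 in oligodendrocytes. In dopaminergic-like, GABAergic-like and Slc17a6-high neurons it made up 31.1% of 5.47, 15.9% of 8.99 and 12.7% of 10.5. Adcy7, a calmodulin-insensitive cyclase, is counted among the 21 higher members, but nothing rests on its call: it was at no more than 0.174 in any rat and neuron class, had 0 UMIs in OPCs, and was below the filter on low counts without rat 1, without rat 2 and at 1000 UMIs per nucleus. Adcy2, activated by G protein beta-gamma subunits, did not pass, at -0.31, with a 95% interval of -0.63 to 0.01, although it was called in 2 of 21 alternative fits.

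Among the phosphodiesterases, the dual-specificity Pde11a and Pde10a and the cyclic GMP-hydrolysing Pde9a had the largest differences in the direction of neurons, at log2 fold changes of 2.81 ± 0.28 (SE, edgeR adjusted p = 4.98e-12), 2.29 ± 0.17 (SE, edgeR adjusted p = 1.19e-15) and 2.50 ± 0.19 (SE, edgeR adjusted p = 9.11e-16). The contrast averages classes, and Pde9a was at 0.747 to 1.90 in astrocytes. Pooled over rats, its neuron sub-clusters were at 0.352 to 0.770 (dopaminergic-like), 0.0587 to 0.983 (GABAergic-like) and 0.392 to 0.460 (Slc17a6-high). Pde1a, activated by calmodulin, was higher by 2.15 ± 0.16 (SE, edgeR adjusted p = 1.31e-15). The cyclic AMP-specific Pde8b differed by 2.15 ± 0.17 (SE, edgeR adjusted p = 7.54e-15), Pde4a by 1.80 ± 0.12 (SE, edgeR adjusted p = 5.97e-17) and Pde4d by 1.24 ± 0.13 (SE, edgeR adjusted p = 2.95e-11). The members lower in neurons were all phosphodiesterase genes. Pde8a was at 5.84, 4.39, 2.87, 7.41 and 5.12 in oligodendrocytes and at 0.196, 0.131, 0.123, 0.172 and 0.0750 in GABAergic-like neurons. The ranges of those classes did not overlap, and neurons were lower than glia on average (log2 fold change -3.49 ± 0.18 SE, edgeR adjusted p = 7.8e-21, lower in 5 of 5 rats). Astrocytes, at 0.110 to 0.946, overlapped both GABAergic-like neurons and dopaminergic-like neurons, the latter at 0.106 to 0.464. Pde4b (-1.64) and Pde7b (-1.24), both cyclic AMP-specific, were lower in 5 of 5 rats, and Pde6d, a chaperone of prenylated proteins, was lower by a log2 fold change of -0.53 in 4 of 5 rats.

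Of the 6 PKA subunits, 3 were called. Prkar1b was at 1.40, 0.901, 0.453, 1.30 and 1.16 in GABAergic-like neurons and at 0.0587, 0.0722, 0.0618, 0.0316 and 0.0307 in oligodendrocytes. Prkar1b was higher in neurons than in glia (log2 fold change 3.29 ± 0.16 SE, edgeR adjusted p = 8.7e-22, higher in 5 of 5 rats), and so was Prkar2b (log2 fold change 2.44 ± 0.15 SE, edgeR adjusted p = 9.5e-19, higher in 5 of 5 rats). The other regulatory subunits did not pass, with Prkar1a at -0.09, with a 95% interval of -0.30 to 0.11, and Prkar2a at 0.10, with a 95% interval of -0.12 to 0.32. Prkar1a was called in 2 of 21 alternative fits, and the catalytic Prkacb in 1. Of the catalytic subunits, Prkacb did not pass (0.09, with a 95% interval of -0.09 to 0.27) and Prkaca was called at a small difference (log2 fold change 0.34 ± 0.10 SE, edgeR adjusted p = 0.00327, higher in 5 of 5 rats), with 0.28 and an edgeR adjusted p of 0.0245 without rat 3. That call was lost without the rat as a block (edgeR adjusted p = 0.207), as were those of Adcy5 and Pde3b, and it was lost with nuclei typed singly from their markers (0.469), as was that of Pde3b. At 1000 UMIs per nucleus Pde1b and Pde4a were below the filter on low counts and were not tested. The call of Pde3b was lost at that depth, and also without rat 2, 4 or 5 and without the microglia of rat 3.

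**Figure D2:**
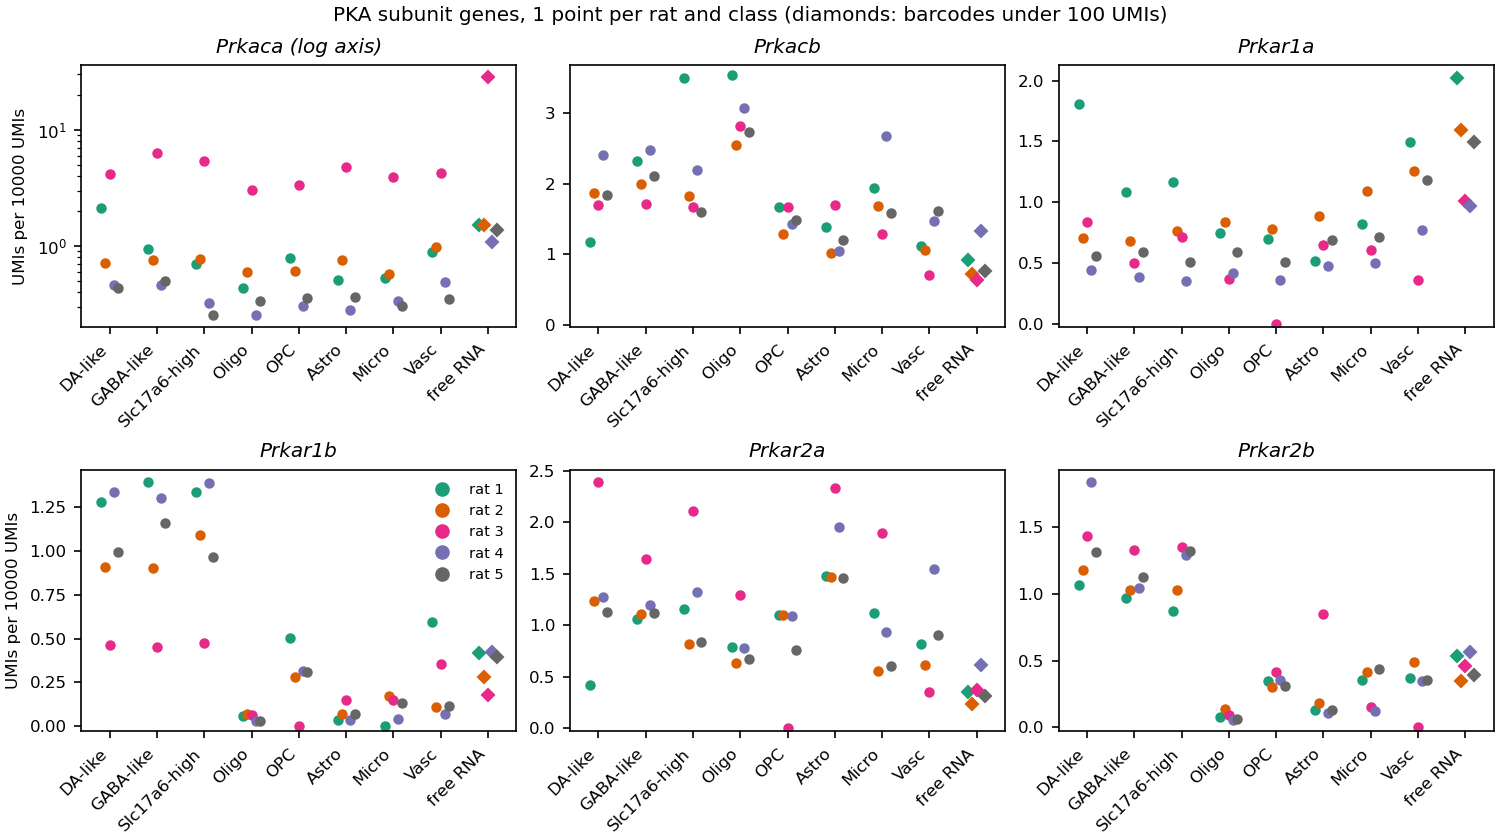
Levels (UMIs per 10000 UMIs) of the 6 PKA subunit genes in 8 classes, with 1 point per rat and diamonds for free RNA, the barcodes with fewer than 100 UMIs; the axis of Prkaca is logarithmic. Prkar1b and Prkar2b lie higher in the neuron classes than in oligodendrocytes, and the Prkaca points of rat 3, from 3.03 to 6.38, lie above those of the other rats in every class.

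Prkaca depended on the library. In GABAergic-like neurons it was at 0.949, 0.759, 6.38, 0.465 and 0.497, and across the 8 classes rat 3 was at 3.03 to 6.38 and the other rats at 0.254 to 2.13. In the barcodes with fewer than 100 UMIs, which hold free RNA and not nuclei, Prkaca was at 28.5 UMIs per 10000 in rat 3 and at 1.07 to 1.53 in the others. Pde12 followed the same order, with 1.71 in the free RNA of rat 3 and 0.0651 to 0.116 in that of the other rats, and rat 3 was the highest rat in all 8 classes. Rat 3 was also the highest rat in all 8 classes for Pde7a. Its free RNA held Pde7a at 0.283, and that of the other rats at 0.216 to 0.543. The part of free RNA in these levels was not tested.

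Dopaminergic-like were then compared with GABAergic-like neurons, the main classes of VTA neurons. In this contrast 6 members were higher in dopaminergic-like neurons, 6 lower and 22 not called, with the sign the same in 5 of 5 rats for all called members but Pde8a. Of all genes, 6.9% were higher, 7.08% lower and 14% called in either direction. All 6 members that were higher were phosphodiesterases, and the lower ones were 3 of the 10 cyclases and 3 phosphodiesterases. The medians over the members and over all genes were -0.09 and -0.04.

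Adcy2 was at 0.426, 0.244, 0.0777, 0.164 and 0.165 in dopaminergic-like neurons and at 1.17, 1.37, 1.23, 1.33 and 1.08 in GABAergic-like neurons. The ranges did not overlap, and the level in dopaminergic-like neurons was 6.93-fold lower in the fit (log2 fold change -2.79 ± 0.30 SE, edgeR adjusted p = 6.98e-10, lower in 5 of 5 rats). The share of nuclei with at least 1 Adcy2 UMI was 8.13% of dopaminergic-like and 35.9% of GABAergic-like nuclei, at median depths of 5636.5 and 5015.5 UMIs, and 1.43% and 10.1% after every nucleus had been thinned to 1000 UMIs, which left out none. Free RNA held Adcy2 at 0.474 to 0.935, above every dopaminergic-like value, and its part in these shares was not tested.

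Adcy8 was at 0.319, 0.512, 0.264, 0.355 and 0.382 in dopaminergic-like and at 3.52, 2.76, 1.45, 2.41 and 2.95 in GABAergic-like neurons, again without overlap (log2 fold change -2.71 ± 0.25 SE, edgeR adjusted p = 1.27e-11, lower in 5 of 5 rats). In the Nox4-led GABAergic-like sub-cluster, described below, Adcy8 was at 1.11, 0.115, 0.626 and 0.874 in rats 2 to 5. Only rat 3's value there was below its dopaminergic-like one. Adcy1 differed less, at 0.319, 0.526, 0.140, 0.642 and 0.507 against 0.905, 0.817, 0.361, 0.870 and 0.818, and its ranges overlapped between rats although each rat's dopaminergic-like value was the lower (log2 fold change -0.67 ± 0.19 SE, edgeR adjusted p = 0.00854, lower in 5 of 5 rats). Adcy5 did not pass, at 0.36, with a 95% interval of -0.02 to 0.74, although it was called in 3 of 21 alternatives.

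Pde5a, a cyclic GMP-specific enzyme and the target of sildenafil, was at 0.532, 0.509, 0.700, 0.587 and 0.626 in dopaminergic-like and at 0.0763, 0.0442, 0.0998, 0.0632 and 0.0517 in GABAergic-like neurons. Every dopaminergic-like value lay above every GABAergic-like one (log2 fold change 3.31 ± 0.28 SE, edgeR adjusted p = 1.02e-12, higher in 5 of 5 rats). A Pde5a UMI was held by 21.9% of dopaminergic-like, 2.94% of GABAergic-like and 0.327% of microglial nuclei, or by 4.88%, 0.71% and 0% at 1000 UMIs per nucleus. Free RNA held Pde5a at 0.0564 on average and the means of oligodendrocytes and microglia were 0.0106 and 0.00799, against 0.0671 in GABAergic-like neurons.

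Pde4d, a cyclic AMP-specific enzyme and a target of rolipram, was at 31.1, 44.6, 35.1, 47.2 and 43.0 in dopaminergic-like neurons and at 17.3, 22.4, 13.9, 22.0 and 18.9 in GABAergic-like neurons. The ranges did not overlap and the difference was 2.12-fold in the fit (log2 fold change 1.09 ± 0.24 SE, edgeR adjusted p = 0.000727, higher in 5 of 5 rats). Its levels in the glial classes, from 5.46 in microglia to 12.5 in oligodendrocytes on average, were below both.

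Pde2a, which cyclic GMP stimulates, was at 0.745, 1.20, 0.342, 0.703 and 0.869 in dopaminergic-like neurons and at 0.556, 0.362, 0.0844, 0.440 and 0.380 in GABAergic-like neurons, where rat 3 was lowest in both (log2 fold change 1.17 ± 0.23 SE, edgeR adjusted p = 0.000105, higher in 5 of 5 rats). Pde11a was at 1.06, 1.46, 0.622, 1.01 and 1.38 and 0.0981, 0.742, 0.315, 0.422 and 0.386, with overlapping ranges because rat 2's GABAergic-like value exceeded rat 3's dopaminergic-like one (log2 fold change 1.39 ± 0.25 SE, edgeR adjusted p = 5.13e-05, higher in 5 of 5 rats). In the Plod2-led dopaminergic-like sub-cluster, described below, Pde11a was under the GABAergic-like value of the same rat in rats 2 to 5. Pde2a was at 0.546 on average in free RNA, above its GABAergic-like mean of 0.365, and its call was lost when 10% free RNA was subtracted, as were those of Adcy1 and Pde1b. The cyclic AMP-specific Pde8a and Pde4b were higher by log2 fold changes of 1.29 ± 0.29 (SE, edgeR adjusted p = 0.000905) in 4 of 5 rats and 0.78 ± 0.20 (SE, edgeR adjusted p = 0.00446) in 5 of 5. The call of Pde8a was lost without rat 2, and that of Pde4b without rat 4 and without rat 5. The level of Pde8a was 0.266 ± 0.129 in dopaminergic-like neurons, against 5.12 ± 1.68 in oligodendrocytes. Free RNA held Pde8a at 0.313 to 1.64, and its part in this difference was not tested.

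The phosphodiesterases lower in dopaminergic-like neurons included the calmodulin-dependent Pde1c, at 0.426, 0.478, 0.264, 0.696 and 0.672 against 0.774, 4.21, 1.53, 3.11 and 2.20 (log2 fold change -2.17 ± 0.28 SE, edgeR adjusted p = 5.75e-08, lower in 5 of 5 rats). Pde8b was at 1.38, 0.643, 0.264, 0.928 and 0.771 against 2.55, 2.08, 1.06, 2.61 and 2.32 (log2 fold change -1.58 ± 0.27 SE, edgeR adjusted p = 1.26e-05, lower in 5 of 5 rats). Pde1b, which striatal neurons are known to express, was lower by a smaller amount, at a log2 fold change of -0.92 ± 0.23 (SE, edgeR adjusted p = 0.00354), and its call was lost without rat 5, as was that of Adcy1. Pde7b did not pass, with a log2 fold change of -0.74 ± 0.27 (SE, edgeR adjusted p = 0.0576), but it was called in 9 of 21 alternatives. Pde1a, Pde4a and Pde10a did not pass either, at 0.56, -0.20 and -0.55, although Pde1a was called in 3 and Pde10a in 4 of the alternatives. The calls of Adcy1, Pde1b, Pde2a, Pde4b, Pde8a and Pde8b were lost without the rat as a block, those of Adcy1 and Pde1b with nuclei typed singly, and those of Adcy1 and Pde8a at 1000 UMIs per nucleus. Pde1b was below the filter on low counts at that depth.

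**Figure D3:**
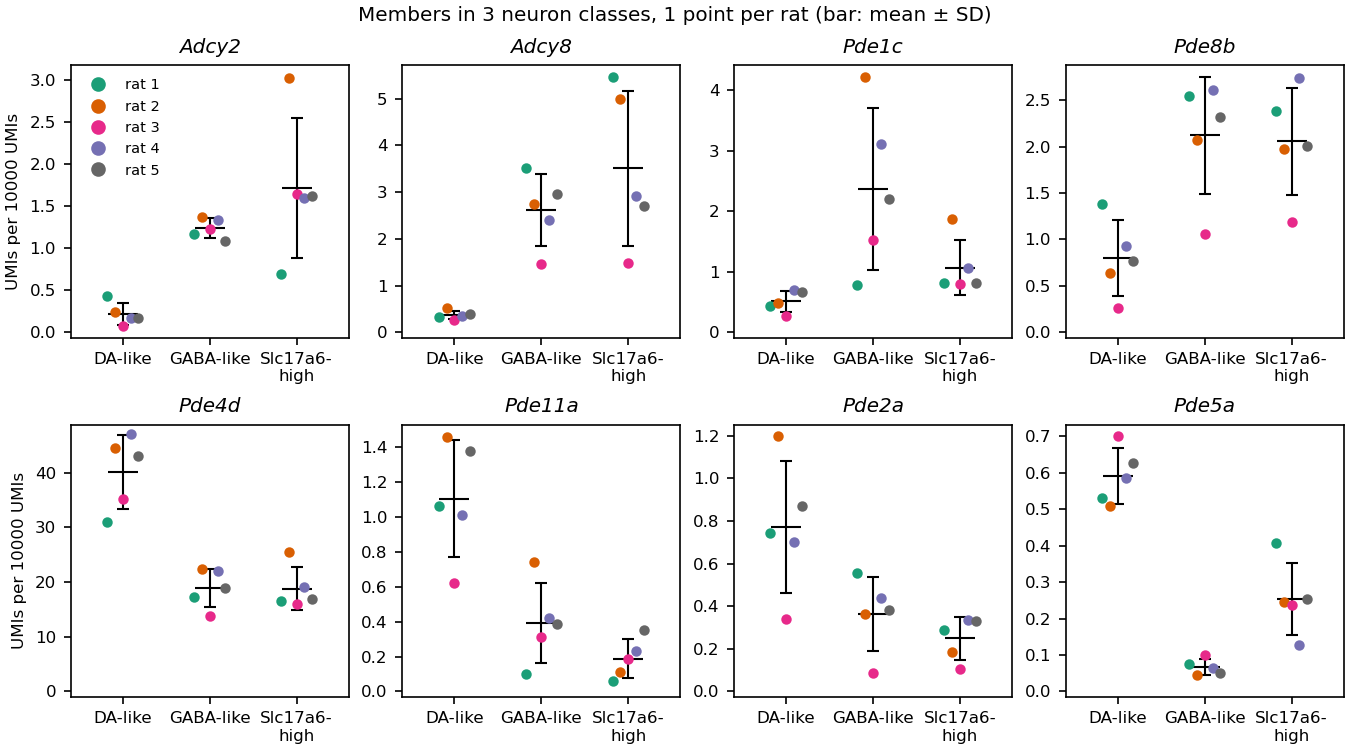
Levels (UMIs per 10000 UMIs) of 8 members in the 3 neuron classes, with 1 point per rat and bars for the mean ± SD over 5 rats, the lower bar ending at 0 at least. Adcy2, Adcy8, Pde1c and Pde8b lie lowest in dopaminergic-like neurons, and Pde4d, Pde11a, Pde2a and Pde5a lie highest there, with Pde5a at 0.509 to 0.700 against 0.0442 to 0.0998 in GABAergic-like neurons.

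Slc17a6-high neurons, named by the vesicular glutamate transporter gene Slc17a6, were compared with dopaminergic-like neurons in the same way. In this contrast 5 members were higher in dopaminergic-like neurons and 6 lower, against 5.66% and 5.05% of all genes, and 11 of 34 were called against 10.7%. Both contrasts contain the same dopaminergic-like sums, so they are not independent. Adcy2 was at 0.697, 3.02, 1.64, 1.59 and 1.62 in Slc17a6-high neurons, above the dopaminergic-like values listed for it (log2 fold change -3.27 ± 0.31 SE, edgeR adjusted p = 5.39e-11, lower in 5 of 5 rats). Adcy8 was at 5.46, 4.99, 1.48, 2.91 and 2.71 (log2 fold change -3.02 ± 0.26 SE, edgeR adjusted p = 2.94e-12, lower in 5 of 5 rats) and Adcy1 differed by -0.93 ± 0.21 (SE, edgeR adjusted p = 0.000987).

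Of the phosphodiesterases, Pde11a was at 0.0581, 0.113, 0.185, 0.231 and 0.355 in Slc17a6-high neurons, every value below the lowest dopaminergic-like one (log2 fold change 2.67 ± 0.35 SE, edgeR adjusted p = 1.63e-07, higher in 5 of 5 rats). That holds for the whole class: its Plod2-led sub-cluster (493 nuclei), described below, was at 0.153 to 0.263, within the Slc17a6-high range. Higher in dopaminergic-like neurons were also Pde8a (2.61, in 4 of 5 rats) and, in 5 of 5 rats each, Pde5a (1.49), Pde2a (1.82) and Pde4d (1.14). Lower were Pde8b (-1.48), Pde7b (-1.40) and Pde1c (-1.05), each in 5 of 5 rats. The call of Pde8a rests on 22 UMIs in Slc17a6-high neurons, with a level of 0 in rat 5. Free RNA held it at 0.313 to 1.64, and the part of free RNA was not tested. The values in parentheses are log2 fold changes, with edgeR adjusted p from 1.63e-07 for Pde11a to 0.0149 for Pde1c, whose call was lost without rat 2. With 10% free RNA subtracted the calls of Pde1c and Adcy1 were lost, and with nuclei typed singly from their markers those of Adcy1, Pde1c, Pde2a, Pde7b and Pde8b, with Pde7b turned in direction (0.080). Without the rat as a block the calls of Adcy1, Pde1c, Pde5a, Pde7b and Pde8b were lost, and at 1000 UMIs per nucleus those of Adcy1, Pde1c and Pde5a. Pde1a (0.62), Pde1b (-0.78), Pde4b (0.19), Pde4a (-0.17), Pde10a (-0.37) and Adcy5 (0.57) did not pass, although Adcy5 was called in 8, Pde1b in 6 and Pde1a in 2 of the 21 alternatives.

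Between GABAergic-like and Slc17a6-high neurons 3 of the 34 members were called, 2 higher and 1 lower in GABAergic-like neurons, against 3.52% of all genes in either direction, 2.07% higher and 1.45% lower. Pde1c (log2 fold change 1.13 ± 0.27 SE, edgeR adjusted p = 0.00611, higher in 4 of 5 rats) and Pde11a (log2 fold change 1.28 ± 0.36 SE, edgeR adjusted p = 0.0283, higher in 5 of 5 rats) were higher and Pde5a was lower (log2 fold change -1.82 ± 0.35 SE, edgeR adjusted p = 0.000524, lower in 5 of 5 rats). Pde5a was at 0.407, 0.245, 0.238, 0.128 and 0.254 in Slc17a6-high neurons, above the GABAergic-like value of the same rat in 5 of 5. Pde11a was not called without rat 2 or without rat 3, Pde5a not without rat 2, and Pde1c not without rat 4 or without rat 5, and with 10% free RNA subtracted only Pde5a was called. Without the rat as a block the calls of Pde11a and Pde1c were lost, and with nuclei typed singly or at 1000 UMIs those of Pde11a and Pde5a. The cyclases Adcy1, Adcy2, Adcy5 and Adcy8 did not pass, with log2 fold changes of -0.26, -0.47, 0.21 and -0.31. Neither did Pde1a (0.06), Pde4a (0.03), Pde4b (-0.59), Pde4d (0.05), Pde7b (-0.66), Pde8b (0.10) and Pde10a (0.17), of which Pde4b was called in 3 and Pde7b in 2 of the 21 alternatives.

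No PKA subunit was called between any pair of neuron classes. For dopaminergic-like against GABAergic-like neurons the log2 fold change of Prkacb was -0.14, with a 95% interval of -0.45 to 0.18, and that of Prkaca was -0.12, with a 95% interval of -0.45 to 0.21. The neuronal subunits Prkar1b and Prkar2b were at -0.05, with a 95% interval of -0.43 to 0.34, and at 0.36, with a 95% interval of -0.04 to 0.75. Prkar2a was at 0.16, with a 95% interval of -0.20 to 0.52, and Prkar1a at 0.21, with a 95% interval of -0.13 to 0.55.

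Within the neuron classes, the level of some members depended on the sub-cluster. The sub-clusters described next were picked after the levels pooled over rats had been seen, and values are given without a test for rats with at least 10 nuclei in the sub-cluster. Pde11a divided the dopaminergic-like neurons. In the sub-cluster led by Plod2 and Col24a1 (493 nuclei), which also held Aldh1a1 among its leading genes, it was at 0.196, 0.263, 0.153 and 0.167 in rats 2 to 5. In that led by Tmem207 and Fam160a1 (401 nuclei) it was at 2.56, 1.03, 1.80 and 2.71 in rats 2 to 5, and in that led by the dopamine transporter gene Slc6a3 (152 nuclei) at 1.76, 6.12 and 2.30 in rats 2, 4 and 5. No value of the latter pair reached down to the highest of the Plod2-led sub-cluster. The Slc6a3-led sub-cluster was shallower, with a median of 3070 UMIs against 6191 (Plod2-led) and 6971 (Tmem207-led), and rat 4 gave it 16 nuclei. As means over nuclei, it held Gad2 at 1.43 per 10000 UMIs, against 0.209 and 0.282, and Mog at 0.995, against 0.324 and 0.368.

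Pde4b was higher in the Plod2-led than in the Tmem207-led sub-cluster in each of rats 2 to 5, at 3.77, 2.05, 5.27 and 4.38 against 1.33, 0.864, 2.11 and 1.66, and it was at 0.906, 3.24 and 2.4 in the Slc6a3-led one in rats 2, 4 and 5. Pde2a was at 0.971, 0.409, 0.565 and 0.654 in the Plod2-led and at 1.39, 0.266, 0.839 and 1.18 in the Tmem207-led sub-cluster in rats 2 to 5, the latter higher in rats 2, 4 and 5, and at 1.26, 1.44 and 0.60 in the Slc6a3-led one in rats 2, 4 and 5. These ranges overlapped.

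Pde1c divided the GABAergic-like neurons. In the Nox4-led sub-cluster (346 nuclei), whose next leading gene was Meis2, it was at 13.4, 9.42, 11.1 and 10.4 in rats 2 to 5, and in the Penk-led one (62 nuclei) at 20.9, 8.45 and 28.1 in rats 2, 3 and 5. The largest GABAergic-like sub-cluster, led by Npas1 (995 nuclei), had 0.158, 0.772, 0.636, 0.865 and 0.654 in rats 1 to 5, and no rat of it reached the lowest value of the Nox4-led sub-cluster. In the Npas1-, Ikzf1-, C1ql2-, Pax3-, Tssk2- and Pax5-led sub-clusters no rat was above 1.15, and in the dopaminergic-like sub-clusters none was above 1.16, and the values of both overlapped. Pde11a of GABAergic-like neurons was at 2.58 and 1.43 in the Pax3-led sub-cluster in rats 2 and 3 and at 1.32, 0.469 and 3.95 in the Penk-led one in rats 2, 3 and 5. In the Npas1-led sub-cluster it was at 0.0526, 0.229, 0.0579, 0.168 and 0.233 in rats 1 to 5, against 0.0586, 0.140, 0.229, 0.241 and 0.342 in the Pdzrn3-led sub-cluster of Slc17a6-high neurons.

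In Slc17a6-high neurons, the Ttc29-led sub-cluster, of which 138 of 195 nuclei came from rat 2, had Adcy2 at 4.85 and 4.52 in rats 2 and 3, against 0.586, 1.26, 0.950, 1.40 and 1.47 in rats 1 to 5 in the Pdzrn3-led one (468 nuclei). Adcy2 of the whole class was highest in rat 2, the rat that supplied most of those nuclei.

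**Figure D4:**
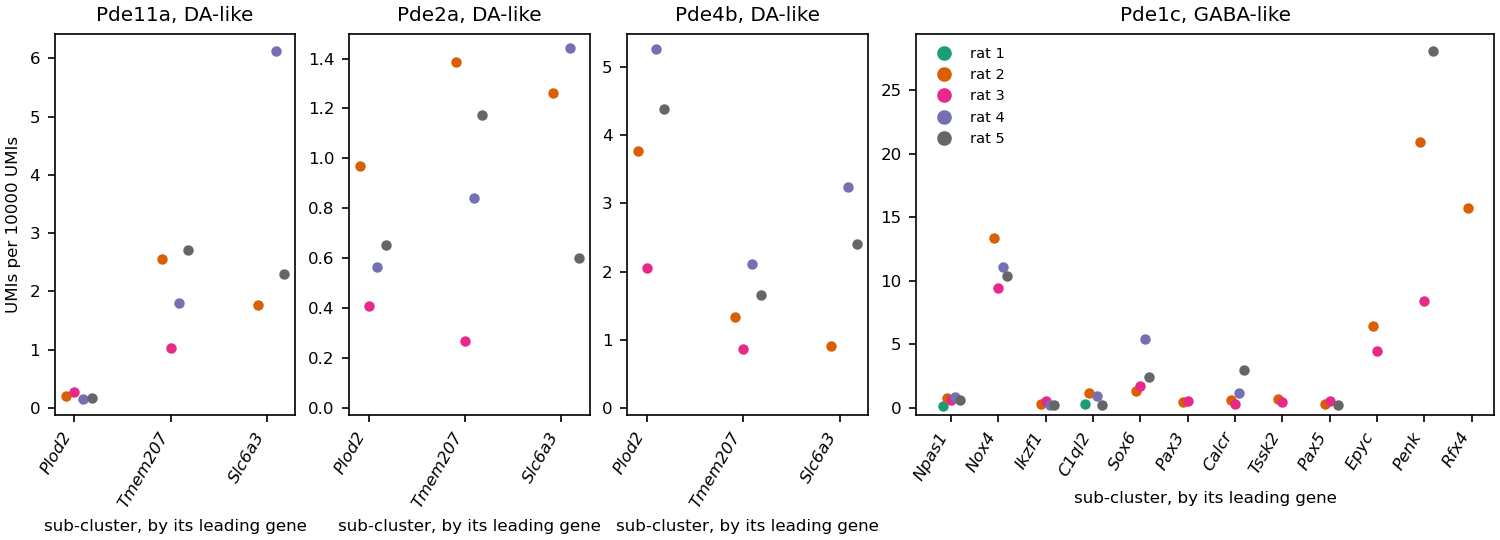
Levels (UMIs per 10000 UMIs) of Pde11a, Pde2a and Pde4b in the 3 dopaminergic-like sub-clusters and of Pde1c in the 12 GABAergic-like sub-clusters, each named by its leading gene, with 1 point per rat holding at least 10 nuclei. Pde11a is at 0.153 to 0.263 in the Plod2-led sub-cluster and at 1.03 or more in the others, and Pde1c is at 8.45 or more in the Nox4-led, Penk-led and Rfx4-led sub-clusters and at 6.44 or less in the others.

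Each glial class was compared with the mean of the other 3. In oligodendrocytes, the myelin-forming cells, 8 members were higher and 19 lower, so 27 of 34 were called, against 29.7% higher, 24.8% lower and 54.5% in either direction among all genes. The medians were -0.72 over the members and 0.10 over all genes. With DESeq2 size factors in place of edgeR's TMM, which moved the median of all genes by -0.18, 7 members and 20.9% of all genes were higher and 21 members and 30.5% lower. Pde4b was at 20.3, 17.8, 10.6, 22.9 and 19.9 in oligodendrocytes and at 5.15, 6.21, 4.60, 7.08 and 5.26 in OPCs, their precursors. Every rat's oligodendrocytes exceeded its OPCs, and Pde4b was higher than in the other glia (log2 fold change 2.38 ± 0.15 SE, edgeR adjusted p = 5.81e-18, higher in 5 of 5 rats).

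Pde8a (log2 fold change 2.85 ± 0.17 SE, edgeR adjusted p = 2.54e-18, higher in 5 of 5 rats) and Pde1c (log2 fold change 2.55 ± 0.20 SE, edgeR adjusted p = 1.55e-14, higher in 5 of 5 rats) were higher as well. Pde1c was at 4.20, 4.08, 2.69, 4.41 and 4.26 in oligodendrocytes, with rat 3 lowest. Prkacb was higher by 1.28 ± 0.13 (SE, edgeR adjusted p = 1.54e-11) and Pde4dip by 0.86 ± 0.14 (SE, edgeR adjusted p = 1.17e-06) in 5 of 5 rats, and Adcy5 by 1.5 ± 0.16 (SE, edgeR adjusted p = 1.2e-10) and Pde4d by 0.84 ± 0.19 (SE, edgeR adjusted p = 0.000196) in 4 of 5.

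Of the 10 cyclases, Adcy1, Adcy2, Adcy3, Adcy8 and Adcy9 were lower in oligodendrocytes. Adcy8 was at 0.0880, 0.0722, 0.124, 0.0475 and 0.0460 (log2 fold change -3.71 ± 0.28 SE, edgeR adjusted p = 4.03e-15, lower in 5 of 5 rats), and Adcy1 and Adcy2 had log2 fold changes of -3.53 ± 0.32 (SE, edgeR adjusted p = 1.16e-12) and -3.27 ± 0.26 (SE, edgeR adjusted p = 2.38e-14). Pde8b (-3.80), Pde7a (-3.07), Pde7b (-2.86), Pde10a (-2.41), Pde1a (-2.17) and Pde4a (-1.80) were lower in 5 of 5 rats, with edgeR adjusted p of 1.76e-08 or less. Prkar2b (-1.28) was lower in 5 of 5 rats and Prkar1b (-1.16) in 3 of 5, while Prkar2a, Prkaca and Prkar1a did not pass. Prkar2a was called in 4 and Prkar1a in 1 of the 21 alternatives. The 19 lower members also count Adcy4, which held 3 UMIs in oligodendrocytes and passed the filter on low counts through microglia and vascular nuclei, so nothing rests on its call. The calls of Adcy1, Adcy3, Pde1a, Pde1b, Pde2a, Pde5a, Pde6d, Pde9a, Pde10a, Prkar1b and Prkar2b were lost when nuclei were typed singly from their markers, where the direction of Prkar1b turned (0.45). In a fit of only the glial classes the calls of Pde3b and Pde5a were lost. Prkar1b was below the filter on low counts in that fit, so nothing rests on its call. Without the rat as a block the calls of Adcy9, Pde2a, Pde3b and Pde6d were lost, and without rat 3, as without rat 1 or 2, that of Adcy4. At 1000 UMIs per nucleus the calls of Pde3b, Pde5a, Pde6d and Pde9a were lost, and Pde1b and Pde4a were below the filter.

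In OPCs 17 members were higher than in the other glia and 5 lower, so 22 were called, against 20.2%, 21.1% and 41.3% of all genes for higher, lower and either direction, and the medians were 0.51 and -0.11. With edgeR's automatic choice of the reference sum for TMM, the 19 nuclei of rat 3, 15 members were higher and 8 lower, against 15.7% and 40.9% of all genes. Pde7b was at 9.28, 8.61, 4.60, 8.94 and 8.29 in OPCs and at 0.378, 0.327, 0.124, 0.483 and 0.428 in oligodendrocytes, without overlap (log2 fold change 2.74 ± 0.19 SE, edgeR adjusted p = 3.81e-16, higher in 5 of 5 rats). Astrocytes held Pde7b at 8.88, 5.61, 1.59, 5.92 and 5.71, below the OPCs of each rat but with overlapping ranges. Pde10a was at 4.17, 3.08, 1.25, 4.79 and 4.10 in OPCs and at 0.202, 0.143, 0.185, 0.111 and 0.146 in oligodendrocytes, with the 19 nuclei of rat 3 again lowest in OPCs (log2 fold change 3.45 ± 0.25 SE, edgeR adjusted p = 9.16e-16, higher in 5 of 5 rats). In the neuron classes Pde10a was at 2.39 to 3.78 on average, a range that included its OPC mean of 3.48.

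Pde8b was at 2.75, 2.02, 0, 3.01 and 1.92 in OPCs, where rat 3 held 0 UMIs of it (log2 fold change 3.76 ± 0.24 SE, edgeR adjusted p = 4.32e-17, higher in 4 of 5 rats). Pde5a was higher by 3.81 ± 0.41 (SE, edgeR adjusted p = 1.89e-10), Pde1a by 2.76 ± 0.25 (SE, edgeR adjusted p = 2.59e-12), Pde7a by 1.61 ± 0.16 (SE, edgeR adjusted p = 9.72e-12) and Pde1b by 2.60 ± 0.32 (SE, edgeR adjusted p = 5.51e-09). Among the cyclases Adcy2 (2.10) and Adcy5 (0.76) were higher in 5 of 5 rats and Adcy1 (2.71) and Adcy8 (1.21) in 4 of 5. These are differences from the mean of the other glia. Astrocytes exceeded OPCs for Adcy8 in every rat, and for Adcy2 in all rats but rat 3, with means of 3.96 against 2.71. Adcy5 made up 22.0% of the cyclase sum of 7.63 in OPCs and 49.9% of that of 3.56 in oligodendrocytes. Pde9a, with 7 UMIs in OPCs, was lower by a log2 fold change of -2.47 in 5 of 5 rats. The other lower members were Adcy7, with 0 UMIs there and nothing resting on its call, Pde11a (-2.35, in 4 of 5 rats) and Adcy9 (-0.64, in 4 of 5 rats), and Prkacb. Pde11a rests on 5 UMIs in OPCs, and its call was lost without rat 2 or 5 and in a fit of only the glial classes. Prkar2b was higher by 0.92 ± 0.29 (SE, edgeR adjusted p = 0.00981), a call that was lost without rat 4. Prkacb was lower by a log2 fold change of -0.43 in 5 of 5 rats, a call that was lost without rat 2, 4 or 5. Prkar1b was at 0.505, 0.280, 0, 0.317 and 0.309 (log2 fold change 2.15 ± 0.31 SE, edgeR adjusted p = 1.96e-07, higher in 4 of 5 rats). It was below the filter on low counts in a fit of only the glial classes, so nothing rests on its call. Without the rat as a block the calls of Adcy5 (edgeR adjusted p = 0.0924), Adcy9, Pde1c and Prkacb were lost, with nuclei typed singly those of Pde9a, Pde11a and Prkacb, and at 1000 UMIs per nucleus those of Pde9a and Prkar2b. Adcy7 and Pde1b were below the filter on low counts at that depth. Pde4b, Pde4d, Pde4a, Prkaca, Prkar1a and Prkar2a did not pass, although Pde4b was called in 2 and Pde4d and Prkar1a in 1 each of the 21 alternatives.

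Astrocytes had 9 members higher and 10 lower, 19 in all, against 19.2%, 18.8% and 38.1% of all genes, with medians of -0.05 for both. DESeq2 size factors gave 9 and 8 members, and 22.8% and 14.8% of all genes. Adcy8 was at 5.38, 5.13, 1.14, 5.66 and 4.73 in astrocytes and at 1.07, 0.720, 0.418, 1.05 and 1.10 in OPCs. Rat 3 was far below the other rats, and in every rat astrocytes exceeded OPCs (log2 fold change 4.26 ± 0.19 SE, edgeR adjusted p = 1.35e-22, higher in 5 of 5 rats). Adcy2 was at 5.29, 3.53, 1.79, 4.34 and 4.87 (log2 fold change 2.97 ± 0.20 SE, edgeR adjusted p = 7.35e-17, higher in 5 of 5 rats), and Adcy1 was higher by 1.0 ± 0.28 (SE, edgeR adjusted p = 0.00372), a call that was lost without rat 2.

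Pde9a was at 1.90, 1.09, 0.747, 1.22 and 1.27 in astrocytes and at 0, 0.0600, 0, 0 and 0.0155 in OPCs (log2 fold change 4.98 ± 0.23 SE, edgeR adjusted p = 8.07e-22, higher in 5 of 5 rats), and Pde7b was higher by 2.06 ± 0.19 (SE, edgeR adjusted p = 1.9e-12). The cyclic GMP-inhibited Pde3b was at 0.220, 0.248, 0.498, 0.353 and 0.439 in astrocytes, below every other glial value (log2 fold change -3.36 ± 0.23 SE, edgeR adjusted p = 1.44e-16, lower in 5 of 5 rats). Pde8a (-2.50), Pde1c (-2.4), Adcy5 (-1.47), Pde4b (-1.10) and Pde4dip (-0.92) were lower in 5 of 5 rats. Pde4a was higher by 0.58 ± 0.23 (SE, edgeR adjusted p = 0.0397) and Pde10a was lower, at a log2 fold change of -1.13 ± 0.33 (SE, edgeR adjusted p = 0.00483), and both calls were lost without rat 2 and without rat 5. Without the rat as a block the calls of Adcy1, Adcy6, Adcy9, Pde4a, Pde6d and Pde10a were lost. With nuclei typed singly those of Adcy6, Pde1c (edgeR adjusted p = 0.0660), Pde4a, Pde6d and Pde10a were lost, at 1000 UMIs per nucleus those of Adcy1, Adcy6, Adcy9 and Pde6d, and with 10% free RNA subtracted those of Adcy9, Pde6d and Pde10a. Pde4a was below the filter on low counts at 1000 UMIs per nucleus. Pde8b (0.27), Pde4d (0.30) and Pde1a (-0.58) did not pass, although Pde4d and Pde1a were called in 2 each and Pde8b in 1 of the 21 alternatives. Of the PKA genes, Prkar2a was higher, at a log2 fold change of 0.86 ± 0.16 (SE, edgeR adjusted p = 2.79e-05), Prkacb was lower, at -0.74 ± 0.15 (SE, edgeR adjusted p = 8.63e-05), and the other 4 did not pass.

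In microglia, the resident immune cells, 6 members were higher and 10 lower, 16 in all, against 14.9%, 16.2% and 31.1% of all genes, with medians of -0.24 and -0.04. DESeq2 size factors gave 6 and 8 members, and 17.9% and 13.0% of all genes. Pde3b was at 14.9, 14.9, 3.57, 12 and 18.1 in microglia and at 1.5, 1.06, 0.803, 1.46 and 1.28 in oligodendrocytes. Rat 3's value, the lowest, came from the 60 nuclei whose markers went against their label, and every microglial value still exceeded every other glial one (log2 fold change 3.50 ± 0.15 SE, edgeR adjusted p = 5.99e-23, higher in 5 of 5 rats). Without those nuclei the log2 fold change was 3.67 with an edgeR adjusted p of 3.89e-26. At least 1 Pde3b UMI was found in 81.0% of microglia and in 6.77% of astrocytes, at median depths of 2081.0 and 3268.0 UMIs, or in 64.7% and 2.05% at 1000 UMIs per nucleus. Free RNA held Pde3b at 0.686 on average, above the astrocyte mean of 0.352, and its part in these shares was not tested.

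Adcy9, a cyclase little affected by forskolin, was at 6.58, 5.22, 1.67, 5.81 and 4.15 in microglia and at 1.48, 1.48, 1.29, 2.19 and 1.39 in astrocytes, with rat 3 the lowest in microglia (log2 fold change 1.54 ± 0.13 SE, edgeR adjusted p = 4.81e-13, higher in 5 of 5 rats). Adcy7, which immune cells are known to express, was at 0.294, 0.294, 0.0760, 0.320 and 0.304. Nothing rests on its call, although it is counted among the 6 higher members. It had 0 UMIs in OPCs, which allows a level of up to 0.0108 by counting error alone, and 4 UMIs in astrocytes and 24 in oligodendrocytes, and it was below the filter on low counts when rat 1 or rat 2 was left out, in a fit of only the glial classes and at 1000 UMIs per nucleus. Adcy4 is named after its values were seen: 36 of its UMIs were in microglia and 1 to 3 in each of the other glial classes. It passed the filter on low counts through microglia and vascular nuclei, each with 36 UMIs, and did not pass it without the vascular sums. It too is counted among the 6, and nothing rests on its call.

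Pde7a was higher in microglia than the mean of the other glia by 1.33 ± 0.17 (SE, edgeR adjusted p = 1.54e-08). It was not particular to microglia, with means of 1.06 there, 1.22 in OPCs, 0.539 in astrocytes and 0.115 in oligodendrocytes. Pde4a was higher by 0.79 ± 0.29 (SE, edgeR adjusted p = 0.0378), and without rat 3's microglia its edgeR adjusted p was 0.0834, so the call was lost, as was that of Pde5a, at 0.0705. Leaving out rat 1, 3, 4 or 5 altogether also ended the call of Pde4a, and leaving out rat 1, 2, 3 or 5 that of Pde5a. Adcy2 (-1.80), Pde4d (-1.31), Pde4b (-1.01) and Pde4dip (-0.75) were lower in 5 of 5 rats, and Pde7b (-1.93), Adcy8 (-1.76) and Adcy5 (-0.78) in 4 of 5. Adcy1 (-0.18), Pde1a (-0.01), Pde8b (-0.22) and Pde10a (0.09) did not pass, although Adcy1, Pde8b and Pde10a were called in 1 each of the 21 alternatives. Prkar2a was lower in 3 of 5 rats by a log2 fold change of -0.57, and no other PKA gene was called. The call of Adcy5 was lost without rat 4 or 5 and that of Prkar2a without rat 2, 4 or 5, and those of Adcy8, Pde1c, Pde5a and Prkar2a were lost with 10% free RNA subtracted. Without the rat as a block the calls of Adcy5 (edgeR adjusted p = 0.152), Pde1c, Pde4a and Prkar2a were lost, with nuclei typed singly those of Pde4a, Pde5a and Prkar2a, and at 1000 UMIs per nucleus that of Prkar2a. Pde4a was below the filter on low counts at that depth. Without rat 3's microglia 15 members were called, Adcy3 among them. The log2 fold changes were then 1.66 for Adcy9, 1.37 for Pde7a, -2.18 for Pde7b, -2.08 for Adcy8, -1.89 for Adcy2, -1.58 for Pde4d, -1.10 for Pde4b, -1.01 for Adcy5, -0.89 for Pde4dip, -0.83 for Pde1c and -0.68 for Prkar2a, all still called.

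**Figure D5:**
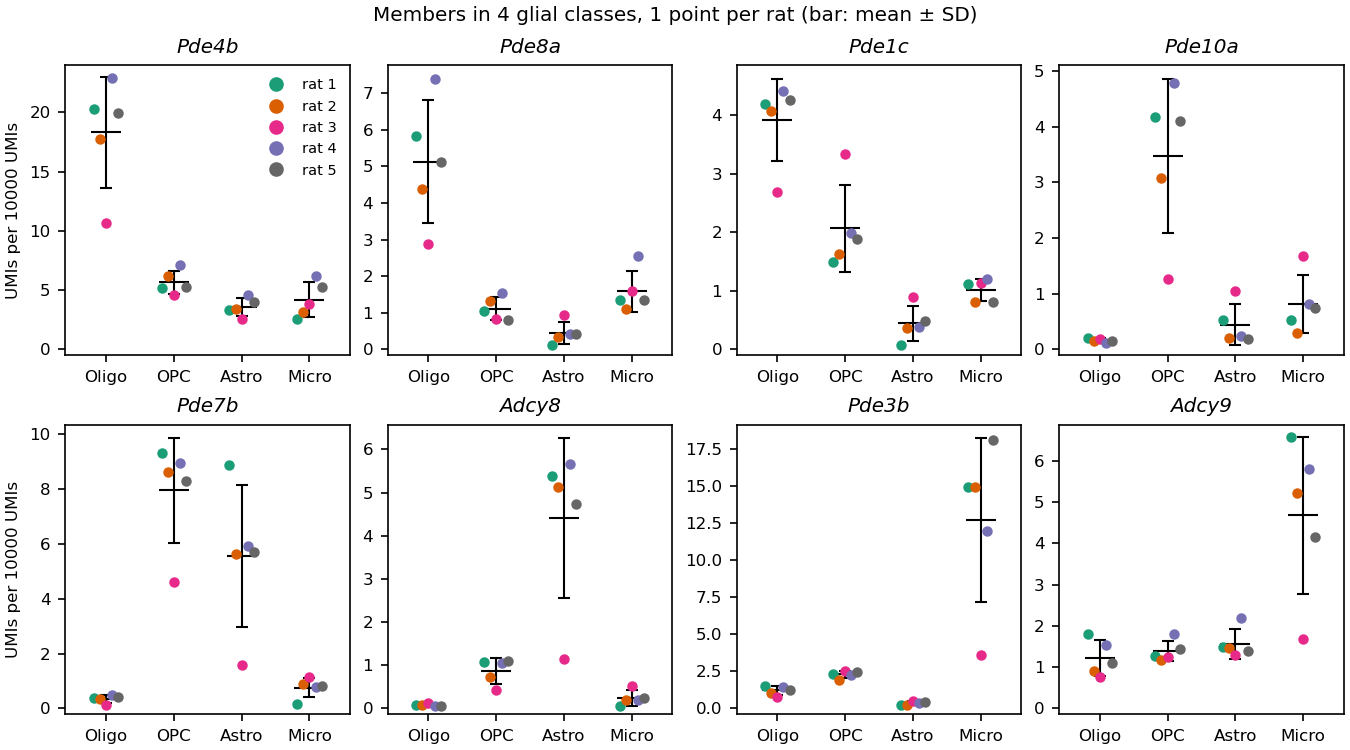
Levels (UMIs per 10000 UMIs) of 8 members in oligodendrocytes, OPCs, astrocytes and microglia, with 1 point per rat and bars for the mean ± SD over 5 rats, the lower bar ending at 0 at least. Pde4b, Pde8a and Pde1c are highest on average in oligodendrocytes, Pde10a and Pde7b in OPCs, Adcy8 in astrocytes, and Pde3b and Adcy9 in microglia.

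Vascular nuclei were in the fit but in no contrast, and rat 3 had 16 of them. Pde5a was at 1.57, 1.54, 0.714, 2.10 and 0.944 there, its highest mean of the 8 classes, and Pde7b was at 4.70, 6.04, 0.714, 6.17 and 3.70. Adcy7 had 0 UMIs in them, which allows up to 0.0252. The 8 members that did not pass the filter on low counts were Adcy10, both Pde4c entries, Pde6a, Pde6b, Pde6c, Pde6g and Pde6h. Of these, Adcy10, the bicarbonate-activated cyclase, was the most detected, at 0.0109 to 0.139 in GABAergic-like neurons, while the photoreceptor subunits Pde6g and Pde6h had 3 and 1 UMIs over the 8 classes and 1 of the 2 Pde4c entries had 0. Adcy10 was at 0 to 0.340 in OPCs. It was called in 9 of 21 alternatives in OPCs and in 9 of 21 in astrocytes.

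The other genes of the pathway were a list of 43 G protein alpha subunits, guanylyl cyclases, PKA inhibitors and anchors, cyclic AMP exchange factors and targets, of which 42 were tested. In neurons against glia 18 were higher and 12 lower, so 30 of 42 were called against 69.8% of all genes, a share near the background. Of the exchange factors, which cyclic AMP activates without PKA, Rapgef4 was at 4.20 to 4.41 on average in the neuron classes and at 0.102 in oligodendrocytes (log2 fold change 3.09 ± 0.18 SE, edgeR adjusted p = 7.08e-19, higher in 5 of 5 rats). Rapgef3 went the other way, at 3.57, 3.06, 1.05, 3.97 and 3.05 in astrocytes and at 0.0981, 0.104, 0.00768, 0.0733 and 0.0647 in GABAergic-like neurons (log2 fold change -3.49 ± 0.18 SE, edgeR adjusted p = 1.11e-20, lower in 5 of 5 rats). Pkia, an inhibitor of the PKA catalytic subunit, was higher in neurons by 2.50 ± 0.14 (SE, edgeR adjusted p = 1.46e-19).

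Between dopaminergic-like and GABAergic-like neurons 5 of those genes were higher and 3 lower, so 8 of 42 were called against 14% of all genes. Akap13, a PKA anchor, was at 1.28, 1.31, 2.55, 1.08 and 1.23 and 0.491, 0.452, 0.622, 0.475 and 0.499 (log2 fold change 1.53 ± 0.20 SE, edgeR adjusted p = 7.77e-08, higher in 5 of 5 rats). The lower genes were all subunits of soluble guanylyl cyclase, the nitric oxide receptor that makes cyclic GMP: Gucy1a1 was at 0.213, 0.361, 0.202, 0.423 and 0.343 and 0.403, 1.02, 0.806, 1.09 and 0.717 (log2 fold change -1.34 ± 0.24 SE, edgeR adjusted p = 3.19e-05, lower in 5 of 5 rats), and Gucy1a2 and Gucy1b1 had log2 fold changes of -1.26 ± 0.28 (SE, edgeR adjusted p = 0.000766) and -0.94 ± 0.19 (SE, edgeR adjusted p = 0.000224). Pde5a, which degrades cyclic GMP, was higher in the same contrast, as given above. Among the other phosphodiesterases, Pde2a and the dual-specificity Pde11a were higher, Pde9a and Pde10a were not called, and Pde1b and Pde1c were lower. Whether these differences belong together was not tested. Against Slc17a6-high neurons, 3 were higher and 3 lower in dopaminergic-like neurons, against 10.7% of all genes in either direction, and 2 were higher and 2 lower in GABAergic-like neurons, against 3.52%, with the peptide gene Adcyap1 at -1.84 ± 0.25 (SE, edgeR adjusted p = 7.29e-07) in the latter contrast.

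In oligodendrocytes 11 of the 42 were higher and 16 lower, against 54.5% of all genes in either direction, and in OPCs 17 and 10, against 41.3%. In astrocytes 14 were higher and 11 lower, against 38.1%, and in microglia 5 and 13, against 31.1%. Gnai1, an inhibitory G protein subunit, was higher in oligodendrocytes by 2.73 ± 0.18 (SE, edgeR adjusted p = 7.06e-17), and Prkg2, a cyclic GMP-dependent kinase, in OPCs by 5.13 ± 0.20 (SE, edgeR adjusted p = 4.46e-24). In astrocytes Gucy1b2 (6.14), Ppp1r1b (4.19), the PACAP receptor gene Adcyap1r1 (2.84) and Rapgef3 (2.76) were higher in 5 of 5 rats, with edgeR adjusted p of 1.83e-12 or less. Ppp1r1b, the gene of a PKA-regulated phosphatase inhibitor, reached 0.199 to 0.525 in astrocytes and no more than 0.106 in any neuron class. In microglia the PKA inhibitor gene Pkib was higher by 4.42 ± 0.40 (SE, edgeR adjusted p = 1.64e-12).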

How the data were processed

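The authors deposited unfiltered matrices of UMI counts per gene and barcode, 1 for each of 5 libraries made with the 10x Genomics 3' v3.1 assay. The submitters' processing notes name Cell Ranger 8.0.1, and the genome build is not given in the sources used here. Barcodes with at least 1000 UMIs, 201 to 4999 genes and under 5% mitochondrial UMIs were kept as nuclei. Doublets were removed by Scrublet score at 0.8% per 1000 nuclei of a library (1068 nuclei), since its automatic threshold did not work. Nuclei were clustered in scanpy 1.11.5 with leidenalg 0.10.2 (2000 variable genes scaled within each library, 30 principal components, 20 neighbours, resolution 1.0) without the members and the other pathway genes. Clusters were named by fixed marker lists. The thresholds of the naming, and the rule that a sub-cluster needed at least 50 nuclei to set the highest marker level, were set after marker levels had been seen, and 4234 nuclei of mixed or unclear clusters and 632 other neurons were left out.

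UMI counts were summed per class and rat (40 sums of at least 10 nuclei) and tested with edgeR 4.0.16 (quasi-likelihood, TMM with the sum of most UMIs as reference, rat as a block, filter on low counts by class, Benjamini-Hochberg over all genes tested, threshold 0.05). All 8 comparisons came from this fit. The pairing came from the animals: sums of the same rat deviated together with correlations of 0.11 to 0.73 (median 0.32). Sums of different rats had overlapping correlations of -0.77 to 0.62 (median -0.056). Directions per rat were read from log2 CPM with a prior count of 0.5 scaled to library size. No study test of these counts was there to follow. In each comparison up to 6 called members per direction with the same sign in every rat were named by size of log2 fold change, beside a list of 17 members considered in each comparison, and up to 4 called genes of the pathway list. The members and lists were chosen with earlier results of these data known. Free RNA was profiled in barcodes with fewer than 100 UMIs and not subtracted from the values given. The test script was first tested on simulated data. Alternatives changed the normalization, filters, test, free RNA, depth, naming, block and rats, with DESeq2 1.42.0 among them, and 5 were added after seeing the data (leaving out rat 3's microglia or the vascular sums, another clustering seed, naming with sub-clusters of any size, and edgeR's automatic TMM reference, which was the OPC sum of rat 3 and was replaced for that reason). Limits on a count of 0 cover counting error only. Promoter letters were read from RefSeq starts on GRCr8.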

Additional observations from a re-analysis of the deposited data

Results flagged for a closer look

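Of 136 sets of 5 rats (17 members in 8 classes), 22 held 1 rat whose gap to the nearest other rat exceeded the 95% limit for 5 samples on the range. Chance gives about 1 such flag in 20 sets when all 5 values are equally precise, which they were not here: the sums of rat 3 were small, with 23917 UMIs in OPCs and 27999 in vascular nuclei, and the part of counting error in the flags was not tested. Rat 3 was the rat in all 22.

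Prkaca made up 7 of them, each with rat 3 the highest: 6.38 in GABAergic-like neurons (other rats 0.465 to 0.949), 5.39 in Slc17a6-high neurons, 3.03 in oligodendrocytes, 3.34 in OPCs, 4.83 in astrocytes, 3.95 in microglia and 4.29 in vascular nuclei, all in UMIs per 10000 UMIs. In the free RNA of the same rat the level was 28.5, against 1.07 to 1.53 in the others, and its part was not tested.

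Adcy5 of rat 3 was also high in OPCs (2.93, others 1.05 to 1.58), astrocytes (1.10, others 0.319 to 0.441), microglia (1.82, others 0.337 to 0.764) and vascular nuclei (5.36, others 0.373 to 1.19), the last from 16 nuclei. Prkar2a of rat 3 was high in GABAergic-like neurons (1.64, others 1.06 to 1.20) and oligodendrocytes (1.30, others 0.639 to 0.792). Prkar2b of rat 3 was high in astrocytes (0.846, others 0.106 to 0.183) and at 0 in vascular nuclei (others 0.351 to 0.492). Pde1a of rat 3 was high in astrocytes (0.647, others 0.0732 to 0.150) and Adcy1 in oligodendrocytes (0.0618 from 2 UMIs, others 0.00959 to 0.0158).

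Low values of rat 3 were flagged for Adcy1 in GABAergic-like neurons (0.361, others 0.817 to 0.905), for Adcy8 in astrocytes (1.14, others 4.73 to 5.66), and in OPCs, with 19 nuclei, for Pde7b (4.60, others 8.29 to 9.28), Pde4d (8.78, others 11.0 to 11.7) and Pde4a (0, others 0.120 to 0.165).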

How the results depend on the processing

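Leaving out 1 rat at a time gave 24 to 25 called members in neurons against glia, 9 to 14 in dopaminergic-like against GABAergic-like neurons, 10 to 14 in dopaminergic-like and 1 to 3 in GABAergic-like against Slc17a6-high neurons, 24 to 26 in oligodendrocytes, 18 to 23 in OPCs, 14 to 21 in astrocytes and 11 to 15 in microglia. Without the pairing by rat as a replicate block, 6 members were called in dopaminergic-like against GABAergic-like, 6 in dopaminergic-like against Slc17a6-high and 1 in GABAergic-like against Slc17a6-high neurons. That last contrast had 7 called members in a fit of only the classes compared, 5 without the filter on low counts, 5 when sub-clusters of any size set the marker levels of the naming, and 1 each with 10% free RNA subtracted, with nuclei thinned to 1000 UMIs and with nuclei typed singly from their markers without clusters. That typing also gave 6 calls in dopaminergic-like against Slc17a6-high neurons and 16 in oligodendrocytes and turned the direction of Pde7b in dopaminergic-like against Slc17a6-high neurons (log2 fold change 0.080) and of Prkar1b in oligodendrocytes (0.45). The cause of these changes was not tested. Of the values of the 102 named results, 2014 kept direction and call, 105 lost the call and 2 reversed. A result whose gene had no value in an alternative, such as one below the filter on low counts there, is in none of these counts. Clustering with another random seed and naming with sub-clusters of any size kept all 102, and edgeR's automatic TMM reference kept 100. DESeq2 size factors moved the median of all genes by -0.18 in oligodendrocytes, 0.12 in astrocytes and 0.11 in microglia and reversed no named result. Of the 42 members, 8 did not pass the filter on low counts and were not compared, and the part of depth in this was not tested.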
